A study of Mus musculus with 18 samples.

Results

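The Gadd45 family comprises Gadd45a, Gadd45b and Gadd45g, small acidic nuclear proteins first known as growth arrest and DNA damage-inducible genes. The 3 genes were found by symbol among the 55471 gene identifiers of the deposited count tables, through the GENCODE vM21 annotation, and all 3 passed the filter on low counts in every fit. The family was chosen by values of the same data: Gadd45g and Gadd45a had already been named for their level in arginine-starved Gcn cells, so the comparisons of starved with unstarved Gcn cells, and the differences of those changes from the Wt changes, are given below as a description, with no test. Comparisons that hold Gcn Arg or Gcn Unstarved libraries share libraries with that contrast, so their values are not independent of the choice. For the members they too are given as a description, with no test. Gadd45 proteins have no enzyme activity of their own and act by binding partners. They activate the kinase MAP3K4, which leads to p38 and JNK signalling, bind PCNA, CDK1 and the inhibitor p21 at the cell cycle, and recruit base and nucleotide excision repair enzymes to methylated DNA. Their mRNAs are short-lived and respond to genotoxic, osmotic, nutrient and differentiation signals. In embryonic stem cells the family is known for induction during differentiation.

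The data were mRNA counts from E14, a mouse embryonic stem cell line that was cultured on gelatin with 15% serum and LIF at 10 ng/ml. Gcn cells carry Eif2ak4-/- and so lack GCN2, the kinase that senses uncharged tRNA and phosphorylates eIF2α, and Wt cells are wild type; nothing in the labels says whether the Gcn line is a single clone. The 6 groups of 3 replicates were Gcn cells without arginine (Gcn Arg), Gcn cells without leucine (Gcn Leu), Gcn cells in full medium (Gcn Unstarved), Wt cells without arginine (Wt Arg), Wt cells without leucine (Wt Leu) and Wt cells in full medium (Wt Unstarved). All were held for 3 h in SILAC medium with 5% dialyzed serum, glucose, LIF and lysine, so that the unstarved cells also changed medium. The labels do not say that the replicates of a group were cultured separately, so the p-values speak for the spread among these libraries, part of which may be technical. In bulk RNA, fewer cells that express a gene and less of its mRNA per cell cannot be told apart.

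The 18 libraries held 14777012 to 38814785 counts each. Eif2ak4, the deleted gene, had 4.04 to 6.37 CPM in Gcn libraries and 27.0 to 33.4 CPM in Wt libraries (CPM is the usual counts-per-million value, on a TMM-scaled total), with a log2 fold change of -2.61 ± 0.13 (SE) in unstarved cells. All 10 embryonic stem cell markers exceeded 1 CPM in every group. The 3 Gcn libraries numbered 1 stood apart from the other 6 Gcn libraries on the second principal component, which held 19.6% of the variance within that genotype, so Gcn values are also given without them.

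Promoter sequence is shown because the members moved together in the starved cells described below. Each line gives the bases from 200 to 51 upstream of the RefSeq start site (build GRCm38.p6), on the gene's own strand and 5′ to 3′. Capitals mark every exact match, on either strand, to 1 of 7 short motifs. The stretches are chr6:67037458-67037607 on the minus strand for Gadd45a, chr10:80929891-80930040 on the plus strand for Gadd45b and chr13:51846475-51846624 on the plus strand for Gadd45g.
Gadd45a: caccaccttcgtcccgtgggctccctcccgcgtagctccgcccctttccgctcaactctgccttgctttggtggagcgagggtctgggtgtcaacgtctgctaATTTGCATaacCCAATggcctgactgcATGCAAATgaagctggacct
Gadd45b: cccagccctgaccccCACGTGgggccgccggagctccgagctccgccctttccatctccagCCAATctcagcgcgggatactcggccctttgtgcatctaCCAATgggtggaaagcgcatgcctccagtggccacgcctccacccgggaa
Gadd45g: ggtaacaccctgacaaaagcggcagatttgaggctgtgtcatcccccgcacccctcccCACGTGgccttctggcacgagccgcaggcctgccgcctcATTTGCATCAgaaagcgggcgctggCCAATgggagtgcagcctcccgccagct

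The motifs were searched in windows from 250 bases before to 50 bases after the start site, and all matches in the 3 genes lay within the printed stretches. The CCAAT box (CCAAT), the site of NF-Y, matched once in Gadd45a and Gadd45g and 2 times in Gadd45b, and 37.4% of all 32851 RefSeq windows hold it. The octamer (ATGCAAAT), a site of POU factors, matched 2 times in Gadd45a, at 97 to 90 and 70 to 63 bases upstream, and 1 time in Gadd45g, at 103 to 96 bases upstream; 1.74% of windows hold it. In human cells the octamer and CCAAT elements of GADD45A are known to be bound by OCT1 and NF-YA. The E-box (CACGTG) matched in Gadd45b at 185 to 180 bases and in Gadd45g at 142 to 137 bases upstream, and 7.15% of windows hold it. The ATF4 element (TGATGNAA) matched only in Gadd45g among the 3, at 101 to 94 bases upstream on the other strand, where it overlaps the octamer match, and 3.97% of windows hold it. The CRE (TGACGTCA, in 1.79% of windows), the FOXO motif (GTAAACA, in 3.65%) and the EGR motif (GCGTGGGCG, in 0.612%) had no match in these windows. The windows were rich in G and C, at 61% for Gadd45a, 62% for Gadd45b and 62.3% for Gadd45g against a median of 52.7% over all windows. They held 14, 24 and 21 CG dinucleotides in that order of genes, against a median of 7.

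Gadd45a (ENSMUSG00000036390) lies on chromosome 6 at 67035096 to 67037457 on the minus strand (GRCm38) and is the member regulated by p53 and BRCA1 after DNA damage. In Gcn cells its level was 62.6, 100.6 and 86.1 CPM without arginine and 69.5, 94.99 and 83.5 CPM without leucine, against 49.0, 62.2 and 60.5 CPM unstarved (replicates 1, 2 and 3). In Wt cells it was 189, 171 and 159 CPM without arginine and 182, 168 and 153 CPM without leucine, against 125, 100.5 and 100.7 CPM unstarved. Every starved library was above every unstarved library of its genotype, although the lowest Gcn Arg library, numbered 1, passed the highest Gcn Unstarved library by less than 1 CPM. Of all genes tested, the starved libraries lay above the unstarved ones without overlap for 20.4% in Gcn Arg, 18.7% in Gcn Leu, 25.5% in Wt Arg and 20.9% in Wt Leu, which is the background for such statements on all 3 members; in Gcn cells nothing is read from it. Apart from the highest Gcn Arg library, every Gcn library was below every Wt library. The gene shares its locus with the antisense transcript E230016M11Rik, which had 16 to 70 counts per library where Gadd45a had 1124 to 5588. Since the strand setting of the counting is not known here, reads of this pair could not be told apart if strand was ignored.

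Gadd45b (ENSMUSG00000015312), on chromosome 10 at 80930073 to 80932204 on the plus strand, is known for induction by NF-κB and TGF-β and for a role in activity-dependent DNA demethylation in neurons. The Gcn libraries had 14.5, 18.5 and 17.0 CPM without arginine and 15.1, 15.1 and 18.8 CPM without leucine, against 9.02, 9.50 and 12.1 CPM unstarved. The Wt libraries had 39.0, 29.7 and 27.8 CPM without arginine and 37.9, 29.9 and 29.9 CPM without leucine, against 22.5, 15.6 and 19.0 CPM unstarved. Starved and unstarved libraries did not overlap in either genotype, and the starved Gcn libraries overlapped the unstarved Wt libraries.

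Gadd45g (ENSMUSG00000021453), on chromosome 13 at 51846678 to 51848468 on the plus strand, is known for roles in sex determination and neural commitment and was found in T cells as a cytokine response gene. Without arginine it had 16.2, 25.8 and 26.6 CPM in Gcn libraries and 25.1, 24.7 and 23.1 CPM in Wt libraries. Without leucine it had 15.1, 21.6 and 16.2 CPM in Gcn libraries and 17.0, 18.2 and 17.0 CPM in Wt libraries. Unstarved, it had 3.48, 3.70 and 3.47 CPM in Gcn libraries and 5.80, 5.45 and 7.22 CPM in Wt libraries. The starved Gcn and starved Wt ranges overlapped, whereas the unstarved Gcn range lay below the unstarved Wt range without overlap, as for 22.3% of genes tested, and the Gcn Arg library numbered 1 was the lowest of its group. The plot of levels by library shows these patterns side by side.

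**Figure D1:**
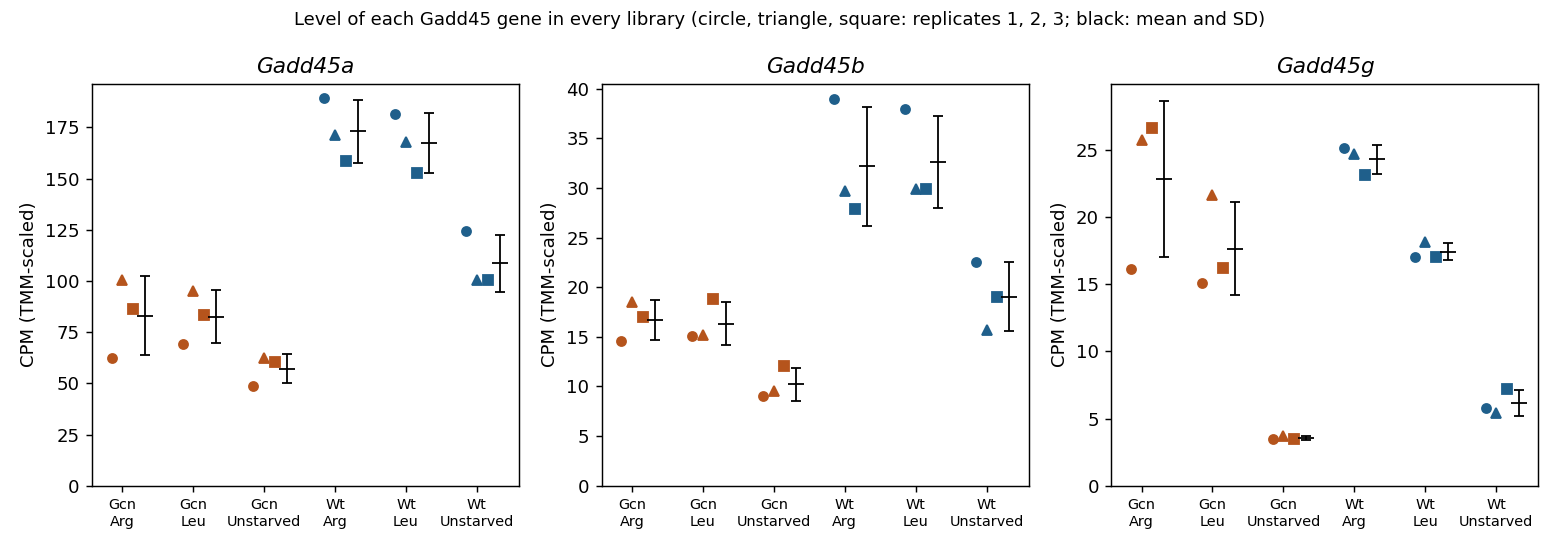
Level of Gadd45a, Gadd45b and Gadd45g in CPM (TMM-scaled; linear axes from 0) in each of 18 libraries, with Gcn groups in orange and Wt groups in blue; symbols give replicates 1, 2 and 3, and black bars give the mean and SD of 3 replicates. Gadd45a and Gadd45b are lower in each Gcn group than in its Wt counterpart, while the starved Gadd45g ranges of both genotypes overlap.

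The order of the group means differed between members. Gadd45a averaged 83.1 ± 19.2 CPM in Gcn Arg, 82.7 ± 12.8 in Gcn Leu and 57.2 ± 7.21 in Gcn Unstarved, and 173 ± 15.4 in Wt Arg, 167 ± 14.5 in Wt Leu and 109 ± 13.9 CPM in Wt Unstarved (SD, n = 3 each). From highest to lowest the order was Wt Arg, Wt Leu, Wt Unstarved, Gcn Arg, Gcn Leu and Gcn Unstarved; among neighbours in it, the starved groups of each genotype overlapped in range, as did Wt Unstarved and Gcn Arg. Gadd45b averaged 16.7 ± 2.00 CPM in Gcn Arg, 16.3 ± 2.14 in Gcn Leu and 10.2 ± 1.66 in Gcn Unstarved, and 32.2 ± 5.97 in Wt Arg, 32.6 ± 4.63 in Wt Leu and 19.1 ± 3.45 CPM in Wt Unstarved. Its order differed from that of Gadd45a only in that Wt Leu stood before Wt Arg, and the same neighbours overlapped. Gadd45g averaged 22.9 ± 5.81 CPM in Gcn Arg, 17.6 ± 3.47 in Gcn Leu and 3.55 ± 0.127 in Gcn Unstarved, and 24.3 ± 1.06 in Wt Arg, 17.4 ± 0.642 in Wt Leu and 6.16 ± 0.939 CPM in Wt Unstarved. Here the 4 starved groups came first, in the order Wt Arg, Gcn Arg, Gcn Leu and Wt Leu, and each neighbouring pair of them overlapped. Below them, without overlap, came Wt Unstarved and then Gcn Unstarved.

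Per kilobase of exon, Gadd45a was the most abundant member in every group. Its share of the family's summed CPM per kb was 61.0 ± 1.79% in Gcn Arg and 64.8 ± 1.02% in Gcn Leu, against 77.4 ± 1.77% in Gcn Unstarved (SD, n = 3 each). In Wt cells its share was 70.6 ± 0.478% without arginine and 72.8 ± 0.671% without leucine, against 78.1 ± 1.97% unstarved. Gadd45g held the reverse pattern, at 25.1 ± 2.16% in Gcn Arg and 20.8 ± 1.78% in Gcn Leu, against 7.29 ± 0.799% in Gcn Unstarved. In Wt cells Gadd45g held 14.9 ± 0.851% without arginine and 11.4 ± 1.01% without leucine, against 6.73 ± 1.35% unstarved. The share of Gadd45b stayed between 13.8% and 15.7% in the 6 groups. Thus at 10.5 ± 1.26 CPM per kb for Gadd45b and 19.5 ± 4.95 CPM per kb for Gadd45g in Gcn Arg, Gadd45g had the higher mean level, whereas in Gcn Unstarved Gadd45b, at 6.42 ± 1.04 CPM per kb, stood above Gadd45g, at 3.03 ± 0.108 CPM per kb.

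**Figure D2:**
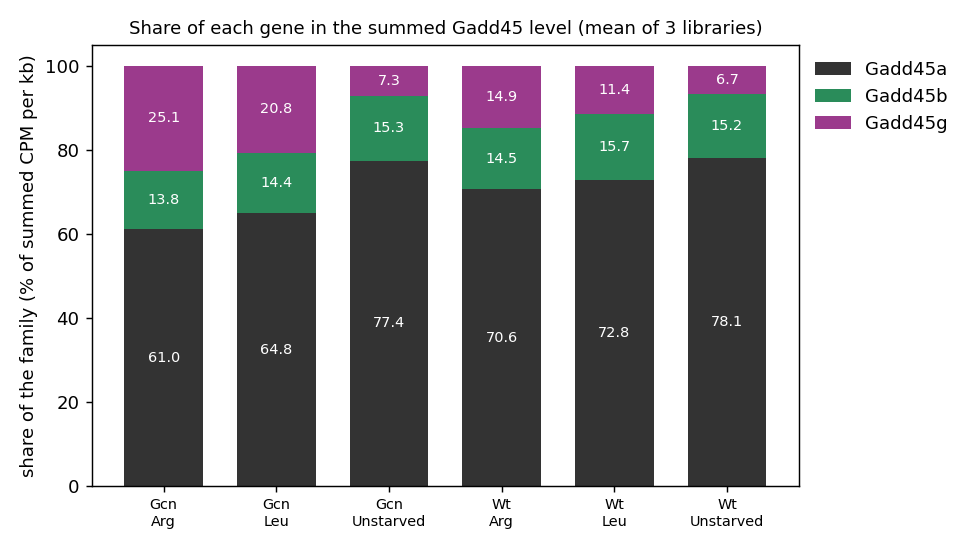
Share of each member in the summed Gadd45 level (% of CPM per kb of exon, mean of 3 libraries) in the 6 groups, as stacked bars. The Gadd45g share is 25.1% in Gcn Arg and 20.8% in Gcn Leu against 7.29% in Gcn Unstarved, and 14.9% in Wt Arg and 11.4% in Wt Leu against 6.73% in Wt Unstarved.

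All 3 members rose in Wt cells starved of arginine, where 20.9% of the 16140 genes tested were called higher (adjusted p under 0.05, edgeR quasi-likelihood test with Benjamini-Hochberg adjustment over all genes tested). Gadd45g rose the most, with a log2 fold change of 1.99 ± 0.10 (SE; edgeR adjusted p = 1.03e-09), the 70th highest of all genes tested. Gadd45b rose by 0.75 ± 0.16 (edgeR adjusted p = 0.00341) and Gadd45a by 0.67 ± 0.09 (edgeR adjusted p = 5.83e-05) on the log2 scale. These are fold changes of 3.97 for Gadd45g, 1.69 for Gadd45b and 1.59 for Gadd45a.

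All 3 members also rose in Wt cells starved of leucine, where 15.5% of genes tested were called higher. The log2 fold change was 1.51 ± 0.11 for Gadd45g (edgeR adjusted p = 7.1e-08), the 79th highest. It was 0.76 ± 0.16 for Gadd45b (edgeR adjusted p = 0.00478) and 0.62 ± 0.09 for Gadd45a (edgeR adjusted p = 0.000222). The 2 starvations share the Wt Unstarved libraries, so these changes are not independent of the arginine changes.

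In Gcn cells, described with no test, the same members were higher in starved than in unstarved cells. Without arginine, the log2 fold change was 2.69 ± 0.21 (SE) for Gadd45g, 0.72 ± 0.15 for Gadd45b and 0.55 ± 0.18 for Gadd45a. Without leucine it was 2.32 ± 0.21 for Gadd45g, 0.69 ± 0.15 for Gadd45b and 0.54 ± 0.18 for Gadd45a. Gadd45g was the 14th highest of 16369 genes tested in each of these comparisons. Without the 3 Gcn libraries numbered 1, the arginine values were 2.88 for Gadd45g, 0.74 for Gadd45b and 0.62 for Gadd45a, and the leucine values were 2.41, 0.68 and 0.56 in that order of genes. The share of genes called higher in these comparisons was 14.3% without arginine and 11.7% without leucine, and nothing is read from it for the members. Scaling by library totals alone moved the median of all genes in Gcn Arg to 0.11, from -0.01 with TMM, and gave log2 fold changes of 2.80, 0.83 and 0.66 for Gadd45g, Gadd45b and Gadd45a, all above that median.

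The size of the Gadd45g change was further apart between genotypes than that of Gadd45a or Gadd45b, with no test of this pattern. Its log2 change in Gcn cells exceeded that in Wt cells by 0.69 ± 0.24 without arginine and by 0.80 ± 0.24 without leucine (SE, description only). Of all genes tested, 0.62% were called with a higher and 1.68% with a lower change in Gcn than in Wt cells without arginine, and 0.154% and 0.668% without leucine, from which nothing is read for the members. For Gadd45a the corresponding differences were -0.13 ± 0.21 and -0.09 ± 0.21, and for Gadd45b they were -0.05 ± 0.22 and -0.09 ± 0.22. Without the Gcn libraries numbered 1, the Gadd45g differences were 0.89 ± 0.19 for arginine and 0.90 ± 0.19 for leucine.

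Leucine and arginine starvation were compared directly within each genotype. In Wt cells Gadd45g was lower without leucine than without arginine, with a log2 fold change of -0.48 ± 0.09 (edgeR adjusted p = 0.00295) and no overlap between the groups; 4.76% of genes tested were called lower and 14.3% lay lower without overlap. With all 18 libraries in the fit the same difference did not pass (-0.48, edgeR adjusted p = 0.0639). Gadd45a differed by -0.05 (95% interval -0.23 to 0.13, edgeR adjusted p = 0.804) and Gadd45b by 0.01 (95% interval -0.30 to 0.32, edgeR adjusted p = 0.976). In Gcn cells the comparison holds the Gcn Arg libraries behind the choice of the family and is a description, with no test; 3.88% of genes tested were called lower, from which nothing is read for the members. The log2 fold change of Gadd45g was -0.37 ± 0.18 (SE), with overlapping groups. It was -0.36 ± 0.10 with the replicate number as a block, -0.47 ± 0.13 without the 3 Gcn libraries numbered 1 and -0.58 ± 0.14 without the Gcn Arg library numbered 1 alone. Gadd45a differed by -0.01 (95% interval -0.35 to 0.33) and Gadd45b by -0.03 (95% interval -0.31 to 0.26).

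All 3 members were lower in Gcn than in Wt cells in full medium, where 16.2% of the 16924 genes tested over 18 libraries were called lower and 16.6% higher. The log2 fold change of Gcn Unstarved over Wt Unstarved was -0.92 ± 0.15 for Gadd45a, -0.90 ± 0.16 for Gadd45b and -0.79 ± 0.19 for Gadd45g (SE, description only). All 3 Gcn libraries were below all 3 Wt libraries for each member, as they were for 22.3% of genes tested. The Gcn Unstarved libraries also entered the contrast by which the family was chosen, so these values are not independent of that choice. They are given with no test, and nothing is read from the shares for the members. Without the Gcn libraries numbered 1, the values were -0.83, -0.83 and -0.78 in that order of genes.

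Without leucine the genotypes differed in Gadd45a and Gadd45b, while Gadd45g showed no detectable difference. The values without arginine are a description, with no test. Without arginine, the log2 fold change of Gcn over Wt was -1.06 ± 0.15 for Gadd45a and -0.95 ± 0.16 for Gadd45b (SE), with 16.7% of genes tested called lower. Without leucine, where 16.7% were also called lower, it was -1.02 ± 0.15 for Gadd45a (edgeR adjusted p = 4.84e-05) and -0.99 ± 0.15 for Gadd45b (edgeR adjusted p = 4.42e-05). The Gcn Arg libraries in the arginine comparison also entered the choice of the family, so nothing is read from the called share there. For Gadd45g the log2 fold change was -0.09 without arginine (95% interval -0.38 to 0.20) and 0.02 without leucine (95% interval -0.28 to 0.31, edgeR adjusted p = 0.945). The intervals, here and above, span the log2 fold change ± the normal quantile times its SE. This leaves out the limited degrees of freedom of the F test, so they are narrower than full 95% intervals. Without the Gcn libraries numbered 1, the Gadd45g values were 0.12 in both comparisons, and those of Gadd45a and Gadd45b lay between -0.92 and -0.84. Between the genotypes other markers moved as well. The summed level of 9 fibroblast markers was 11.2 to 14.7 CPM in Gcn libraries, where 4 of 9 exceeded 1 CPM and Postn or Lum was at 0 in each group, and 20.7 to 31.4 CPM in Wt libraries, where 6 of 9 did and Lum was at 0 in unstarved cells. The 7 two-cell-like markers summed to 47.6 to 86.8 CPM in Gcn libraries, with 5 or 6 of them above 1 CPM, and to 12.6 to 19.1 CPM in Wt libraries, with 3 or 4. The 14 markers of primed, germ layer and neural cells summed to 273 to 330 CPM in Gcn libraries and 225 to 282 CPM in Wt libraries, with 9 to 11 of them above 1 CPM in each group. The 10 embryonic stem cell markers summed to 7970 to 8400 CPM in Gcn Arg, 8920 to 9560 CPM in Gcn Leu and 8260 to 8780 CPM in Gcn Unstarved. In Wt cells they summed to 6890 to 7540 CPM without arginine, 7340 to 8070 CPM without leucine and 7570 to 8500 CPM unstarved. The starved genotypes were thus apart in this sum, and Wt Arg was below Wt Unstarved, without overlap. Gm42418, a gene known to overlap a ribosomal RNA repeat, took 1.5% to 3.97% of counts in Gcn Unstarved and 0.224% to 1.21% in Wt Unstarved, also without overlap. It took 0.813% to 2.58% in Gcn Arg and 0.712% to 1.39% in Wt Arg, and 1.31% to 2.06% in Gcn Leu and 0.61% to 1.28% in Wt Leu. Mitochondrial transcripts held 2.04% to 2.99% of counts in all 18 libraries. The part of these markers and shares in the Gadd45 differences was not tested.

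**Figure D3:**
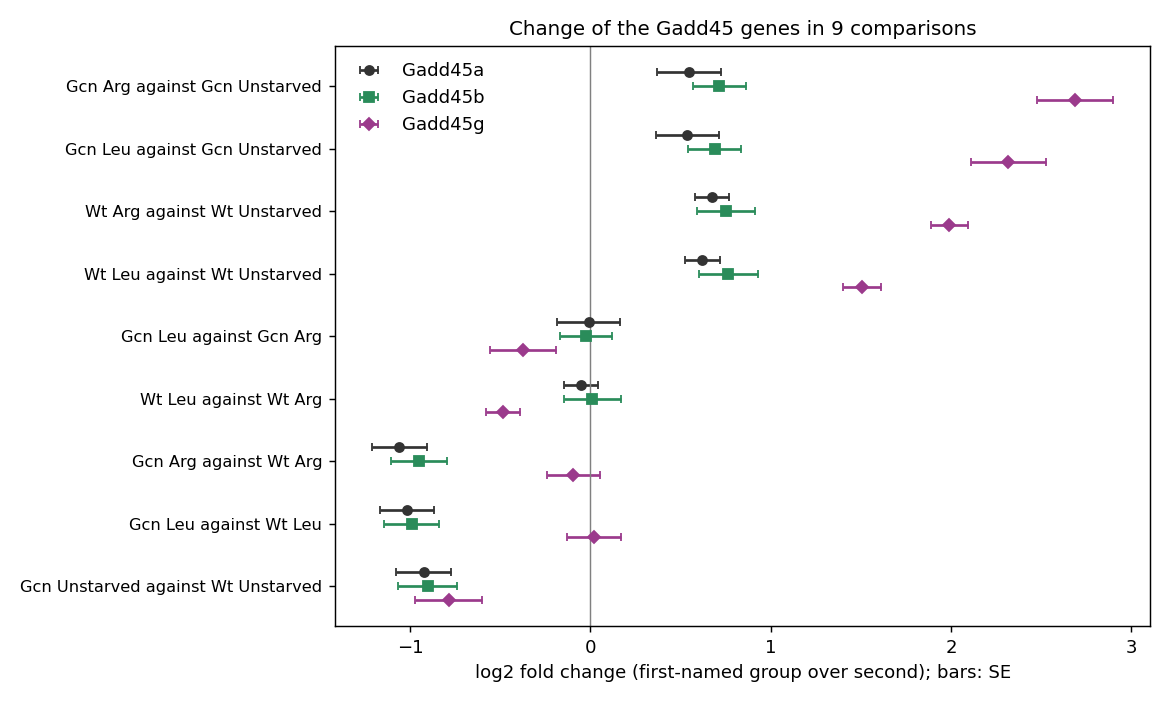
Log2 fold change of the first-named over the second-named group for the 3 members in 9 comparisons, from edgeR fits; bars give the SE. Gadd45g lies at 2.69 and 2.32 in starved Gcn cells and at 1.99 and 1.51 in starved Wt cells, whereas Gadd45a and Gadd45b lie between 0.54 and 0.76 in all 4.

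Of 3 genes that share the GADD name or bind Gadd45 proteins, 2 rose and 1 fell in each Wt starvation. In Gcn cells 1 fell without arginine, and the edgeR test called 0 without leucine, where 0 had an unadjusted p under 0.05 and DESeq2 and limma-voom also called 0. Among all genes tested, 20.9% rose and 20% fell in Wt Arg, and 15.5% and 14.1% did in Wt Leu. In Gcn Arg 14.3% rose and 13.7% fell, and in Gcn Leu 11.7% and 10% did. With 3 genes each call is 33.3% of the list, so nothing is read for the list as a whole. Ddit3, which encodes the transcription factor CHOP, fell by 0.81 in Gcn Arg (edgeR adjusted p = 0.00143) and had a log2 fold change of 0.21 ± 0.14 in Gcn Leu (edgeR adjusted p = 0.346). In Wt cells Ddit3 rose by 2.04 ± 0.16 without arginine (edgeR adjusted p = 2.01e-06) and by 2.81 ± 0.16 without leucine (edgeR adjusted p = 4.03e-07). Its change in Gcn cells was below that in Wt cells by -2.87 ± 0.24 for arginine (edgeR adjusted p = 2.8e-07) and by -2.62 ± 0.23 for leucine (edgeR adjusted p = 8.85e-07). The same differences for Gadd45g, 0.69 ± 0.24 and 0.80 ± 0.24, are a description only, and the contrast between the 2 genes was not tested. Ppp1r15a, the phosphatase subunit GADD34 that reverses eIF2α phosphorylation, had values of 0.06 ± 0.11 in Gcn Arg and -0.10 ± 0.10 in Gcn Leu, which did not pass, and rose by 0.61 ± 0.08 in Wt Arg and 0.51 ± 0.08 in Wt Leu. Gadd45gip1, whose product binds Gadd45 proteins and serves in mitochondrial ribosomes, passed in neither Gcn comparison and fell by 0.29 in Wt Arg and 0.28 in Wt Leu.

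Most genes of a p53 target list, which holds no Gadd45 gene, fell in starved Wt cells. Of 14 listed genes, 11 fell and 0 rose in Wt Arg, where 20% of all genes were called lower, and 9 fell and 0 rose in Wt Leu, where 14.1% were. The 0 stood also at an unadjusted p under 0.05 and with DESeq2 and limma-voom, while the replicate block called 1 higher and 11 lower without arginine, and 0 higher and 11 lower without leucine. The list's median log2 fold change was -0.48 without arginine and -0.44 without leucine, against medians of -0.01 and 0.01 over all genes tested. Phlda3, an inhibitor of AKT, fell by 1.33 without arginine and 1.07 without leucine, and the kinase gene Plk2 fell by 1.18 and 1.07. Cdkn1a, which encodes p21, fell by 0.89 and 0.51, and Mdm2, the ubiquitin ligase of p53, fell by 0.64 and 0.69. Btg2, an antiproliferative gene, fell by 1.13 and 1.06.

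In the p53 list a difference between the Gcn change and the Wt change was called for 2 of 14 genes, Cdkn1a and Btg2, both with the higher change in Gcn cells, as for 0.62% of all genes without arginine and 0.154% without leucine. The Gcn change of Cdkn1a exceeded the Wt change by 0.62 ± 0.15 without arginine (edgeR adjusted p = 0.0329) and by 0.80 ± 0.15 without leucine (edgeR adjusted p = 0.0085). For Btg2 it did so by 0.73 ± 0.17 without arginine (edgeR adjusted p = 0.0204) and by 0.88 ± 0.17 without leucine (edgeR adjusted p = 0.00811). In Gcn Arg 7 fell and 1, Pmaip1 (0.34 ± 0.11, edgeR adjusted p = 0.0314), rose, where 13.7% of all genes were called lower and 14.3% higher. In Gcn Leu 3 fell and 1, Cdkn1a (0.30 ± 0.09, edgeR adjusted p = 0.035), rose, where 10% were called lower and 11.7% higher. The list's median was -0.39 in Gcn Arg and -0.27 in Gcn Leu, against -0.01 and 0.00 over all genes tested. With the replicate block 11 fell in Gcn Arg and 9 in Gcn Leu, and without the Gcn libraries numbered 1 there were 8 and 6, with 0 rising. Trp53 itself fell by 0.36 in Gcn Arg (edgeR adjusted p = 0.0108), rose by 0.28 in Gcn Leu (edgeR adjusted p = 0.0495), fell by 0.25 in Wt Arg (edgeR adjusted p = 0.00481) and stood at 0.13 ± 0.06 in Wt Leu (edgeR adjusted p = 0.127).

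Among 16 regulators known to act on Gadd45 genes, 2 rose and 7 fell in Gcn Arg, 2 rose and 5 fell in Gcn Leu, 5 rose and 6 fell in Wt Arg, and 4 rose and 5 fell in Wt Leu; without the Gcn libraries numbered 1, 1 rose and 3 fell in Gcn Leu. Of all genes tested, 14.3% rose and 13.7% fell in Gcn Arg, 11.7% and 10% in Gcn Leu, 20.9% and 20% in Wt Arg, and 15.5% and 14.1% in Wt Leu. The regulators rose in 12.5% of cases in each Gcn comparison, 31.2% in Wt Arg and 25% in Wt Leu, and fell in 43.8% in Gcn Arg, 31.2% in Gcn Leu, 37.5% in Wt Arg and 31.2% in Wt Leu. Their median log2 fold change was -0.15 in Gcn Arg, -0.09 in Gcn Leu, -0.07 in Wt Arg and -0.00 in Wt Leu, against -0.01, 0.00, -0.01 and 0.01 over all genes tested. The mRNA of Atf4, the effector of GCN2 signalling, fell by 0.58 in Gcn Arg (edgeR adjusted p = 0.000168) and by 0.29 in Gcn Leu (edgeR adjusted p = 0.0192). In Wt cells it rose by 0.44 ± 0.09 without arginine (edgeR adjusted p = 0.00187) and by 0.61 ± 0.09 without leucine (edgeR adjusted p = 0.000251). Myc, known to repress Gadd45a, fell in all 4 comparisons, by 1.00 in Gcn Arg, 0.63 in Gcn Leu, 0.80 in Wt Arg and 0.43 in Wt Leu (edgeR adjusted p between 3.34e-08 and 0.000138). Foxo3, a forkhead factor known to activate Gadd45a, rose by 0.48 in both Gcn Arg and Wt Arg, with edgeR adjusted p of 0.000775 and 1.64e-05, and had values of 0.11 ± 0.08 in Gcn Leu and 0.04 ± 0.06 in Wt Leu, which did not pass. Smad3, a mediator of TGF-β signals, fell by 0.76 in Gcn Arg, 0.84 in Gcn Leu, 0.52 in Wt Arg and 0.63 in Wt Leu. Brca1 rose by 0.79 in Wt Arg and 0.52 in Wt Leu. Wt1 fell in Gcn Arg (-0.97), Wt Arg (-0.53) and Wt Leu (-0.48). Egr1 rose in Wt Arg (0.53) and fell in Wt Leu (-0.35) and Gcn Leu (-0.86). Nfya, for NF-YA, fell in Gcn Arg (-0.43) and Wt Arg (-0.54). Pou2f1, for OCT1, rose in Wt Arg (0.32) and Wt Leu (0.44). Stat3 rose in Gcn Arg (0.40) and Gcn Leu (0.55). In starvation comparisons not listed for them, these genes did not pass.

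The stress kinases act downstream of Gadd45. Of 13 tested genes of this arm (14 listed), 2 rose and 2 fell in Gcn Arg, 1 rose and 1 fell in Gcn Leu, 4 rose and 2 fell in Wt Arg, and 1 rose and 2 fell in Wt Leu; with the replicate block 3 rose and 4 fell in Gcn Arg and 3 rose and 3 fell in Gcn Leu. By share, 15.4% rose and 15.4% fell in Gcn Arg, where 14.3% and 13.7% of all genes did, and 7.69% rose and 7.69% fell in Gcn Leu, where 11.7% and 10% did. In Wt Arg 30.8% rose and 15.4% fell, against 20.9% and 20% of all genes, and in Wt Leu 7.69% and 15.4%, against 15.5% and 14.1%. The median log2 fold changes of the arm, at -0.01, 0.02, -0.10 and -0.05 in that order of comparisons, were within 0.1 of 0, so nothing is read for the arm as a whole. Jun, the target of JNK, rose in all 4, by 0.82 ± 0.13 in Gcn Arg (edgeR adjusted p = 0.000374), 0.56 ± 0.13 in Gcn Leu (edgeR adjusted p = 0.00686), 0.96 ± 0.13 in Wt Arg (edgeR adjusted p = 1.94e-05) and 0.45 ± 0.13 in Wt Leu (edgeR adjusted p = 0.015). Map3k4, the kinase that Gadd45 proteins bind, did not pass in Gcn Arg (-0.25), Gcn Leu (-0.27) or Wt Arg (-0.14), and fell by 0.19 in Wt Leu (edgeR adjusted p = 0.0321). In unstarved cells, 6 of the 13 were lower in Gcn than in Wt and 2 were higher, where 16.2% of all genes were called lower and 16.6% higher. Of the p38 kinase genes, Mapk12 was at -1.30 ± 0.16 (edgeR adjusted p = 1.51e-06) and Mapk11 at -0.60 ± 0.15 (edgeR adjusted p = 0.00369). Mapk13 was at -0.54 ± 0.15 (edgeR adjusted p = 0.00714), whereas Mapk14 did not pass (-0.07 ± 0.08, edgeR adjusted p = 0.534). The 2 higher genes were Map2k6 (0.45 ± 0.12) and Atf2 (0.48 ± 0.09).

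Of 8 cell cycle and repair partners, the edgeR test called 0 in Gcn Arg, where 2 had an unadjusted p under 0.05, DESeq2 and limma-voom called 0 and the replicate block called 2, both lower. In Gcn Leu 2, Cdc25c and Cdkn1a, rose, and with the block 2 rose and 2 fell. In Wt cells 2 rose and 2 fell without arginine, and 1 rose and 4 fell without leucine. The shares of all genes that rose and fell were 14.3% and 13.7% in Gcn Arg, 11.7% and 10% in Gcn Leu, 20.9% and 20% in Wt Arg, and 15.5% and 14.1% in Wt Leu, and with 8 genes each call is 12.5% of the list. The list's median was 0.06 in Gcn Arg, 0.05 in Gcn Leu, -0.03 in Wt Arg and -0.13 in Wt Leu. Cdc25c, the phosphatase that activates CDK1, rose by 0.33 in Wt Arg and 0.26 in Wt Leu, and Pcna, the replication clamp, fell by 0.19 in Wt Leu.

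Of 10 DNA demethylation partners, 2 rose and 1 fell in Gcn Arg, 2 rose in Gcn Leu, 5 rose and 1 fell in Wt Arg, and 2 rose and 1 fell in Wt Leu. The block gave 3 rising and 2 falling in Gcn Arg and 4 rising and 1 falling in Gcn Leu. A share of 20% rose in each Gcn comparison, 50% in Wt Arg and 20% in Wt Leu, where 14.3%, 11.7%, 20.9% and 15.5% of all genes did. Falling genes made up 10% of the list in Gcn Arg, 0% in Gcn Leu and 10% in each Wt comparison. Of all genes tested, 13.7% fell in Gcn Arg, 10% in Gcn Leu, 20% in Wt Arg and 14.1% in Wt Leu. The list's median was 0.04 in Gcn Arg, 0.07 in Gcn Leu, 0.12 in Wt Arg and 0.18 in Wt Leu. Neil2, a DNA glycosylase, had the highest changes of the list and rose by 1.42 ± 0.11 in Gcn Arg (edgeR adjusted p = 2e-06), 1.17 ± 0.11 in Gcn Leu (edgeR adjusted p = 1.77e-05), 1.34 ± 0.11 in Wt Arg (edgeR adjusted p = 7.8e-08) and 0.92 ± 0.11 in Wt Leu (edgeR adjusted p = 1.32e-05). Ing1, a reader of histone methylation that is known to recruit Gadd45a, fell by 0.46 in Gcn Arg, 0.75 in Wt Arg and 0.36 in Wt Leu, and stood at -0.19 ± 0.08 in Gcn Leu (edgeR adjusted p = 0.107). In unstarved cells 4 of the 10 were called higher in Gcn than in Wt and 0 lower, where 16.6% of all genes were called higher and 16.2% lower. Tet1 (0.83 ± 0.17) and Tet2 (0.90 ± 0.21), which oxidise 5-methylcytosine, were higher, as were Ercc4 (0.53 ± 0.08) and Mbd4 (0.24 ± 0.09). Tet3 did not pass (-0.24 ± 0.12, edgeR adjusted p = 0.148).

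Of 13 factors of RNA decay and RNA binding, 1 rose and 4 fell in Gcn Arg, 1 rose and 2 fell in Gcn Leu, 2 rose and 6 fell in Wt Arg, and 2 rose and 2 fell in Wt Leu. The block gave 3 rising and 6 falling in Gcn Arg, and 4 rising and 3 falling in Gcn Leu. A share of 30.8% fell in Gcn Arg, 15.4% in Gcn Leu, 46.2% in Wt Arg and 15.4% in Wt Leu, where 13.7%, 10%, 20% and 14.1% of all genes did, and the list's median was -0.12, 0.06, -0.00 and 0.01 in that order. Rising genes made up 7.69% of the list in each Gcn comparison and 15.4% in each Wt comparison. Of all genes tested, 14.3% rose in Gcn Arg, 11.7% in Gcn Leu, 20.9% in Wt Arg and 15.5% in Wt Leu. Hnrnpd, which encodes AUF1 and is known to destabilise human GADD45A mRNA, fell by 0.39 in Gcn Arg and 0.65 in Wt Arg and had values of 0.06 in Gcn Leu and -0.21 in Wt Leu, which did not pass. Zfp36l1, an ARE-binding decay factor, fell in all 4 comparisons, by 0.39 in Gcn Arg, 0.34 in Gcn Leu, 0.38 in Wt Arg and 0.47 in Wt Leu.

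**Figure D4:**
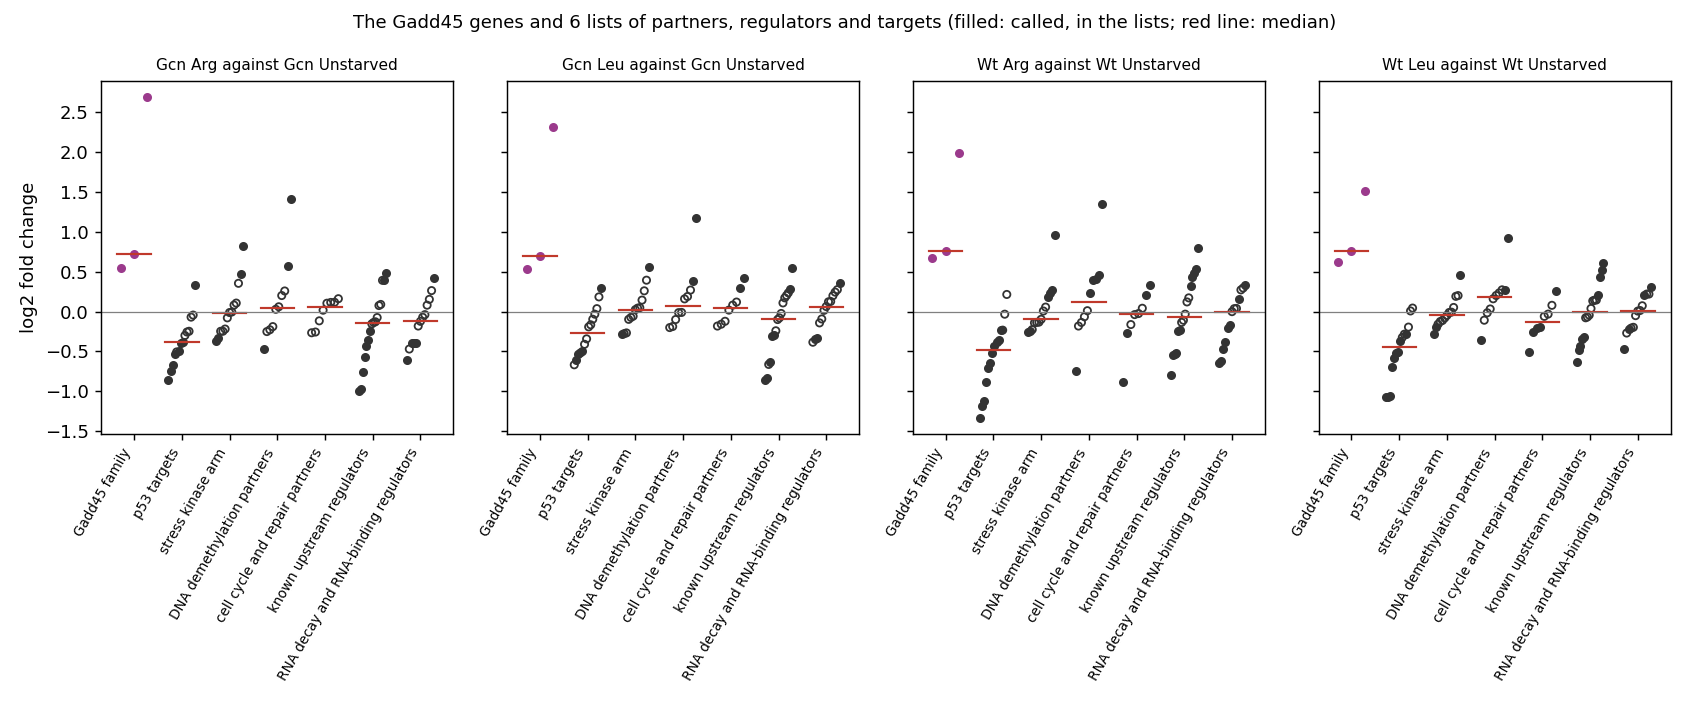
Log2 fold change of the Gadd45 genes (purple) and of the tested genes of 6 lists in each starvation comparison, 1 point per gene, with the list median as a red line; in the lists, filled points passed the test and open points did not. The p53 targets have medians of -0.39 in Gcn Arg, -0.27 in Gcn Leu, -0.48 in Wt Arg and -0.44 in Wt Leu, while the Gadd45 genes lie above 0 in each panel.

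Likeness of pattern was measured as Pearson's r of log2 CPM over the 18 libraries, as a description; the libraries fall into 6 groups, so r mostly reflects the group levels. Gadd45a and Gadd45b were alike, with r = 0.961 over 18 libraries, 0.843 over the 9 Gcn libraries and 0.967 over the 9 Wt libraries. Gadd45g had r = 0.582 with Gadd45a and 0.651 with Gadd45b over 18 libraries. Within a genotype those values were higher, at 0.841 with Gadd45a and 0.902 with Gadd45b in Gcn cells, and 0.909 and 0.855 in Wt cells.

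The 5 genes most like Gadd45a were Foxi3 (0.967), Gadd45b, Prr5l (0.958), Prss8 (0.956) and Sgce (0.954), and those most like Gadd45b were Prr5l (0.981), Ccn2 (0.975), Foxi3 (0.962), Gadd45a and Cxcl16 (0.952). Foxi3, a forkhead factor, averaged 12.03 CPM in Gcn Arg, 10.1 in Gcn Leu and 4.39 in Gcn Unstarved, and 39.2 in Wt Arg, 31.2 in Wt Leu and 15.0 CPM in Wt Unstarved. The 5 most like Gadd45g were Gpr19 (0.971), Dll1 (0.967), Atraid (0.964), Cnot8 (0.964) and Bhlhe41 (0.963). Dll1, a Notch ligand, averaged 36.5 CPM in Gcn Arg and 27.6 in Gcn Leu against 7.16 in Gcn Unstarved, and 34.1 in Wt Arg and 21.5 in Wt Leu against 7.77 CPM in Wt Unstarved. Bhlhe41, a transcriptional repressor of the clock, averaged 34.3 CPM in Gcn Arg and 24.8 in Gcn Leu against 3.56 in Gcn Unstarved, and 63.3 in Wt Arg and 36.4 in Wt Leu against 4.52 CPM in Wt Unstarved. Ranked by Spearman's rho in place of r, 2 of the 5 for Gadd45a, 3 of the 5 for Gadd45b and 0 of the 5 for Gadd45g remained among the first 5.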

How the data were processed

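RNA-seq of 18 libraries was analysed, 3 per group. The submitters' processing notes name STAR 2.7.4a, HTSeq and DESeq 1.30.1 among the tools, and build GRCm38; no source used here gives the annotation release or the strand setting. The deposited tables hold raw counts per Ensembl gene, 1 table per genotype, which were joined by identifier. A second pair of tables that the authors deposited holds a normalized signal (counts over a size factor, separately by genotype), which served only to check ratios of group means. GENCODE vM21 gave symbols to 55144 identifiers. The members and gene lists were chosen with earlier results of these data known.

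Counts were tested with edgeR 4.0.16 (filterByExpr, TMM, robust quasi-likelihood F test); p was adjusted by Benjamini-Hochberg over all genes tested, with a call under 0.05. Comparisons within a genotype used its 9 libraries, and those between genotypes all 18. Each SE was derived from the log2 fold change and its F statistic. Levels are CPM on TMM-scaled totals of all 18 libraries. The fits were tested on simulated data. Replicates differed beyond sampling noise (chi-square per gene 7.46 to 35.6). Same-numbered libraries deviated together in every Gcn pairing (correlation 0.18 to 0.485, threshold 0.1) and between Wt Leu and Wt Arg, so their numbers were taken to pair them. However, Gcn Unstarved 3 also had 0.217 with Gcn Arg 2 and 0.206 with Gcn Leu 2, against 0.18 with Gcn Arg 3 and 0.2 with Gcn Leu 3. The pairing of that library is therefore unclear. Other Gcn pairs of different numbers gave 0.008 or less. Between Wt Unstarved and the starved Wt groups the same-number correlations were also above 0, at 0.049 to 0.201, but not all passed the threshold. Different numbers gave -0.176 to -0.004 there. Between genotypes same-numbered libraries did not deviate together (-0.227 to 0.144). The main fits did not use the pairing. Named genes were the 3 members, the 5 most like each, Eif2ak4, Atf4, Ddit3, Trp53, Foxo3, Myc and Map3k4, and up to 4 called genes per list and comparison by size of change; other genes with values were chosen after these were seen. Alternatives were DESeq2 1.42.0, limma-voom 3.58.1, DESeq2 size factors, library totals, no filter on low counts, the compared groups alone, all 18 libraries, a replicate block, no Gcn libraries numbered 1, and each library left out. Promoter sequences are from RefSeq.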

Additional observations from a re-analysis of the deposited data

How the results depend on the processing

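Over the alternatives, 195 of 196 values of member changes called by edgeR kept their direction and call, and 1 lost its call: Gadd45g in Wt Leu against Wt Arg with all 18 libraries in the fit (-0.48). Of 56 values of tested differences that were not called, 0 gained a call and 10 turned in sign, from values between -0.09 and 0.02 to values between -0.15 and 0.12. Of 249 other values, all given as a description, 20 turned in sign, from values between -0.13 and -0.01 to values between 0.00 and 0.14. All 20 were of Gadd45a or Gadd45b in Gcn Leu against Gcn Arg or in the differences of the Gcn from the Wt change. In Gcn Leu against Gcn Arg, Gadd45g was at -0.36 with the replicate block and -0.47 without the 3 Gcn libraries numbered 1, and leaving out 1 library at a time gave -0.58, without the Gcn Arg library numbered 1, to -0.26. That comparison is a description and is left out of the tested differences counted above. Gcn Unstarved against Wt Unstarved and Gcn Arg against Wt Arg are descriptions too but are counted there by their edgeR calls. Nothing is read from those calls. In Gcn Leu against Gcn Arg the edgeR adjusted p is described next. Its edgeR adjusted p for Gadd45g was not under 0.05 in the main fit. It was under 0.05 with the block, without the 3 Gcn libraries numbered 1 and without the Gcn Arg library numbered 1 alone. Nothing is read from this. The SEs, p-values and called shares given above are from fits without the pairing by replicate number. With the replicate block the SE in Gcn Arg was 0.065 for Gadd45a and 0.13 for Gadd45g, against 0.18 and 0.21 without it. In numbers of genes called, the replicate block gave 7602 in Gcn Arg and 6651 in Gcn Leu, against 4583 and 3561 without it. For leucine against arginine the block gave 4362 in Gcn cells and 3328 in Wt cells, against 1395 and 1615, and the fit of all 18 libraries gave 2344 and 916. Leaving out 1 library at a time gave 2171 to 3163 in Gcn Leu, lowest without Gcn Unstarved replicate 2, 710 to 1082 in Gcn Leu against Gcn Arg, lowest without Gcn Leu replicate 2 and at 711 without Gcn Arg replicate 3, and 871 to 1258 in Wt Leu against Wt Arg, lowest without Wt Arg replicate 2. Scaling by library totals called 3449 genes higher and 1397 lower in Gcn Arg, against 2339 and 2244 with TMM, 2609 and 1066 in Gcn Leu, against 1920 and 1641, and 3125 and 2362 in Gcn Arg against Wt Arg, against 2500 and 2830. The cause of these shifts was not tested. Of the counts of list genes called, 842 stayed within 1.5 times of the value given and 166 moved by more. With the replicate block, in Wt Arg 4 rose and 5 fell of the stress kinases, 2 rose and 3 fell of the cell cycle partners, 5 rose and 2 fell of DNA demethylation, and 7 rose and 6 fell of the regulators. In Wt Leu the block gave 2 rising and 3 falling for the stress kinases, 5 and 1 for DNA demethylation, 6 and 5 for the regulators and 2 and 3 for RNA decay. The replicate block changed no call on a member in the tested comparisons, which leave out those given as a description. The lowest member count was 80, for Gadd45g in a Gcn Unstarved library.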

Other observations

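Values of neighbouring genes are given for the same comparisons. Sema4d, the nearest tested gene to Gadd45g at 52931 bp, encodes a semaphorin and fell in all 4 starvation comparisons, by 0.28 in Gcn Arg, 0.40 in Gcn Leu, 0.32 in Wt Arg and 0.35 in Wt Leu (edgeR adjusted p between 0.00235 and 0.0323). Near Gadd45b, the lamin gene Lmnb2 fell by 0.34 in Wt Arg (edgeR adjusted p = 0.00085) and had a value of -0.06 in Wt Leu (edgeR adjusted p = 0.541), and Timm13, of the mitochondrial import machinery, fell by 0.32 in Wt Arg and 0.24 in Wt Leu. Gng7, a G protein subunit gene 16420 bp from Gadd45b, fell by 0.66 in Wt Arg (edgeR adjusted p = 0.00157) and by 0.41 in Wt Leu (edgeR adjusted p = 0.0434). In Gcn cells Lmnb2, Timm13 and Gng7 did not pass in either starvation. Gng12, another G protein subunit gene and the neighbour of Gadd45a at 13746 bp, passed in no starvation comparison, with log2 fold changes of 0.27 ± 0.15 in Gcn Arg, 0.14 ± 0.14 in Gcn Leu, -0.06 ± 0.12 in Wt Arg and -0.23 ± 0.12 in Wt Leu. In unstarved cells Gng12 was lower in Gcn than in Wt by 0.82 on the log2 scale (-0.82 ± 0.13, edgeR adjusted p = 5.03e-05), as was Gng7 (-0.64 ± 0.16, edgeR adjusted p = 0.00324). Lmnb2 was lower as well (-0.23 ± 0.09, edgeR adjusted p = 0.0407), and Timm13 had a value of -0.26 (edgeR adjusted p = 0.0613).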
